A study of Mus musculus with 9 samples.

Results

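The genes described here encode C-type lectin receptors of myeloid cells. All 9 listed members were found by their gene symbol among the 13526 genes of the deposited expression table. They are Clec4e (Mincle), Clec4d (MCL), Clec4n (Dectin-2), Clec5a (MDL-1), Clec7a (Dectin-1), Clec12a (MICL), Clec4a1 (Dcir4), Clec4a2 (Dcir1) and Clec4a3 (Dcir3). Bulk RNA-Seq had been performed on BM macrophages of C57BL/6 mice, given by the labels as 8 weeks old, after 3 days in M-CSF at 10 ng/mL. There were 3 libraries of macrophages without RANKL (Control), 3 of macrophages given RANKL, the cytokine that drives osteoclast formation, for 48 hours (RANKL), and 3 of macrophages given RANKL with recombinant CST6, a secreted inhibitor of cysteine proteases, for 48 hours (RANKL+CST6). The doses of RANKL and CST6 in these cultures, and whether Control was kept for the same 48 hours, are not given in the sources used here. Whether the 3 libraries of a group came from separate mice or cultures is not stated either, so p-values cover only how far these samples scatter, and that scatter may be technical. M-CSF is given by the methods as present during the RANKL step too.

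C-type lectin receptors recognize sugars, glycolipids and products of damaged cells at the surface of macrophages, dendritic cells and granulocytes. Mincle, MCL and Dectin-2 have no activating motif of their own and pair with the FcR gamma chain (Fcer1g), MDL-1 pairs with the adaptors DAP12 (Tyrobp) and DAP10 (Hcst), and Dectin-1 carries an activating motif in its own tail. These receptors signal through the kinase Syk and the scaffold Card9. MICL and Dcir1 instead carry an immunoreceptor tyrosine-based inhibitory motif (ITIM), through which phosphatases are recruited. Osteoclast precursors share Syk and the adaptors with these receptors, since costimulation through FcR gamma and DAP12 accompanies RANKL signaling.

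The distinction between activating and inhibitory members rests on the tail inside the cell, so the first 60 coding bases of the Dcir genes and Clec12a are shown, from transcripts of GENCODE M21 on GRCm38. Capitals mark coding bases 13 to 30, which encode the ITIM where one is present.
Clec12a: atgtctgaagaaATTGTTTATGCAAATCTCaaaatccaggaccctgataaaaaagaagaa
Clec4a2: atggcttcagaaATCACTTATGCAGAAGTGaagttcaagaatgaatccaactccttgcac
Clec4a4: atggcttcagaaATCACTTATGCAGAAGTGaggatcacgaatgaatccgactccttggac
Clec4a1: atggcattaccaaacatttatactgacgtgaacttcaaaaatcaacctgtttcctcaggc
Clec4a3: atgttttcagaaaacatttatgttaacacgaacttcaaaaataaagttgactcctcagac
The ITIM was encoded in Clec12a and Clec4a2 and, among genes that are not members, in Clec4a4 (Dcir2). It was not encoded in the first 20 codons of Clec4a1 or Clec4a3. Clec4a1 and Clec4a3 are therefore treated as a separate class, called Dcir without ITIM, beside 5 activating members (Clec4e, Clec4d, Clec4n, Clec5a and Clec7a) and 2 inhibitory members (Clec12a and Clec4a2).

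All 9 members lie on chromosome 6 (GRCm38), and the longest coding transcript of each has 6 exons. From Clec4a1 to Clec4e, 6 members share a cluster of 368 kb: Clec4a1 (chr6:122921848-122934619), Clec4a3 (chr6:122952515-122969875), Clec4a2 (chr6:123106428-123143999), Clec4n (chr6:123229843-123247021) and Clec4d (chr6:123262111-123275265) on the plus strand, and Clec4e (chr6:123281789-123289870) on the minus strand. Clec12a (chr6:129342691-129365303, plus strand) and Clec7a (chr6:129461591-129472779, minus strand) lie within 130 kb of each other. Clec5a (chr6:40574894-40585821, minus strand) stands alone. GENCODE M21 lists Clec7a as a polymorphic pseudogene and the other members as protein coding.

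RefSeq (GRCm38.p6) gave promoter sequences, 250 bases before to 50 after a start site, for 8 members. Those of Clec4d and Clec4a1 are shown because both genes had the same order of levels among the groups, that of Clec4e because it neighbors Clec4d, and those of Clec4a2 and Clec7a because these genes were lower with CST6. Capitals mark matches, on either strand, to GAGGAA (PU.1), TGANTCA (AP-1), TTGCNNAA (C/EBP), TGGAAA (NFAT), to GAAA and GAAA separated by any 2 bases (IRF), or to GGGA and CC separated by any 4 bases (NF-kB), motifs chosen after the expression values had been seen.
Clec4d (chr6:123261857-123262156, plus strand): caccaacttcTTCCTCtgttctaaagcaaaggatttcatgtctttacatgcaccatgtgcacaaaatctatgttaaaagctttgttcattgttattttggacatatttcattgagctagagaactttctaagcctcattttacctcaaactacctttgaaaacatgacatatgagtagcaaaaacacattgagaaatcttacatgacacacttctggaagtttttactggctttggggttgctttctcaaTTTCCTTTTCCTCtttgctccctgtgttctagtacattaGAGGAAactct
Clec4a1 (chr6:122921598-122921897, plus strand): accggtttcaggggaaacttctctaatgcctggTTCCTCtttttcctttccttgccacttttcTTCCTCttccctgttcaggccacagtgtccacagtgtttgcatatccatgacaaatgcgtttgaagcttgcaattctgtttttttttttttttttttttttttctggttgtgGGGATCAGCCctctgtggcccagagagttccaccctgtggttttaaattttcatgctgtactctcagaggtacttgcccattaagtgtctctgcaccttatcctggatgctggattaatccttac
Clec4e (chr6:123289822-123290121, minus strand): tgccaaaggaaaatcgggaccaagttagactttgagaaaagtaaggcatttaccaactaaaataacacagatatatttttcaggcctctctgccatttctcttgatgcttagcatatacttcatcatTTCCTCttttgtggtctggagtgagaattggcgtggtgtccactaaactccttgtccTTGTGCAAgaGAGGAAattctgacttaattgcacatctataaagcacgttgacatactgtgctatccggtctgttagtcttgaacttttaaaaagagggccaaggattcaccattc
Clec4a2 (chr6:123122440-123122739, plus strand): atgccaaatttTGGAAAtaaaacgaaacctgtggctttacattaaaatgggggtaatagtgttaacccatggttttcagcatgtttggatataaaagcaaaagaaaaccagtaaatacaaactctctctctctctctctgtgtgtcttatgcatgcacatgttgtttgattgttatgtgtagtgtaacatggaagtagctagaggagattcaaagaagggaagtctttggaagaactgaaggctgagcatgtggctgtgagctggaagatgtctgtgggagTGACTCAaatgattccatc
Clec7a (chr6:129472730-129473029, minus strand): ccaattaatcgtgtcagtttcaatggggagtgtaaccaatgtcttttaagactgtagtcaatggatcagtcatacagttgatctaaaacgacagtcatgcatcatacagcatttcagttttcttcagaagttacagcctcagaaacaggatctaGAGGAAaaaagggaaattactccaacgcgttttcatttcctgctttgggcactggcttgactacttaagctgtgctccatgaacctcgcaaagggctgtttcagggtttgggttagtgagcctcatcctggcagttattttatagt
The PU.1 letters, bound by a factor that specifies myeloid cells, were found for 7 of the 8 members with a promoter sequence, all except Clec4a2, and in 28.3% of all 32851 mouse promoters. Clec4d had 3 such matches, and the match at base 8 after the start site overlapped its IRF match, which was the only IRF match of the members and is found in 3.44% of promoters. Clec4e and Clec12a had C/EBP letters, found in 10.8% of promoters, and Clec4a2 and Clec12a had AP-1 letters, found in 7.81%. The NF-kB letters were found for Clec4a1 alone, against 20.7% of promoters, and the NFAT letters for Clec4a2, Clec4a3 and Clec5a, against 21.4%. The RefSeq start sites used for Clec4a2 and Clec12a lie well inside the genes as GENCODE M21 draws them. The Clec12a promoter is chr6:129349994-129350293, and the gene starts at 129342691. A member was counted where any of its promoter entries matched (10 entries for the 8 members), while the percentages are of single promoters. The PU.1 letters were absent from the Clec4a3 entry that starts at 122952265. A match is a description of these letters and no evidence of binding.

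The values are log2 normalized expression as deposited, read here as log2 of a normalized value plus 1, and a difference of 1 is a 2-fold change. Sums of linear values were 2.77e+07 to 3.14e+07 per library. Sequencing depth is unknown because the values had already been normalized. Libraries of a group correlated across genes at 0.988 to 0.990 and libraries of different groups at 0.879 to 0.916. The macrophage markers Adgre1, Csf1r and Cd68 were present in every group. The summed linear level of 9 osteoclast markers was 4623 to 4714 in Control, 504645 to 654983 in RANKL and 10367 to 13580 in RANKL+CST6. In bulk RNA, fewer cells of a type and less RNA per cell cannot be told apart, so each difference below is a difference of the culture.

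Per kb of transcript, Clec4d was the most abundant member in Control (13.73 ± 0.09 on the log2 scale per kb; SD, n = 3) and in RANKL+CST6 (14.20 ± 0.10; SD, n = 3), whether the median or the longest coding transcript gave the length. Clec5a was the least abundant in Control (9.27 ± 0.14 with the median length; SD, n = 3) and in RANKL (9.93 ± 0.10; SD, n = 3) with either length. In RANKL+CST6 the lowest place fell to Clec4n, at 8.97 ± 0.13 (SD, n = 3), down from 12.58 ± 0.09 (SD, n = 3) in Control. Clec12a held the second place in RANKL+CST6 with either length, at 13.38 ± 0.12 (SD, n = 3). With the longest transcript it was second in RANKL as well. The highest member in RANKL depended on the length used, Clec4a2 with the median and Clec4d with the longest.

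Across the 3 groups, all 9 members differed by the moderated F-test of limma (adjusted p = 7.69e-13 for Clec4n to 7.66e-07 for Clec4a3), against 88.7% of all 12932 genes tested. Such a share is therefore close to that of the whole table. What set the members apart from each other was direction. With CST6 beside RANKL, 6 members were higher and 3 were lower, and both directions occurred among activating and among inhibitory members.

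**Figure D1:**
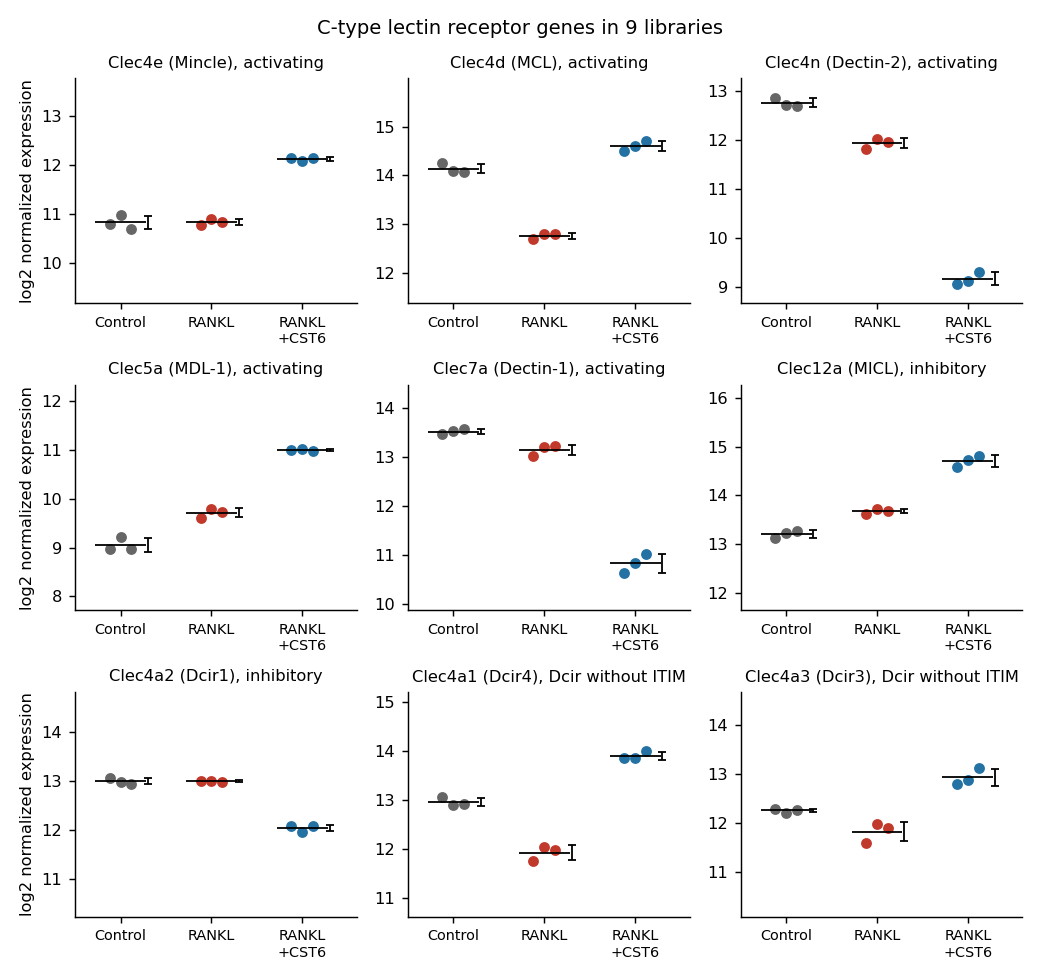
Log2 normalized expression (y axis) of each of the 9 receptor genes in the 3 groups (x axis), with a panel per gene and a y axis of equal span in every panel. Points are libraries, horizontal lines are means and bars are SD (n = 3). Clec4n and Clec7a are lowest in RANKL+CST6, while Clec4e, Clec5a and Clec12a are highest there.

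Among the FcR gamma partners, Clec4e encodes Mincle, which binds the cord factor of mycobacteria and a nuclear protein released by dead cells. Clec4e values were 10.81, 10.98 and 10.70 in Control, 10.78, 10.91 and 10.84 in RANKL, and 12.15, 12.09 and 12.15 in RANKL+CST6. All 3 RANKL+CST6 libraries were above the 6 others, and Control and RANKL overlapped. Clec4e was 2.44-fold higher in RANKL+CST6 than in RANKL (log2 fold change 1.28, SE 0.066, limma adjusted p = 2.10e-09). Between RANKL and Control the difference was 0.01 (95% interval -0.13 to 0.16, adjusted p = 0.863).

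Clec4d encodes MCL, which forms a complex with Mincle and lies beside Clec4e on the chromosome. Clec4d values were 14.24, 14.09 and 14.07 in Control, 12.70, 12.79 and 12.80 in RANKL, and 14.51, 14.60 and 14.71 in RANKL+CST6. No groups overlapped, with RANKL lowest and RANKL+CST6 highest. Clec4d was 2.59-fold lower in RANKL than in Control (log2 fold change -1.37, SE 0.061, limma adjusted p = 7.65e-10) and 3.59-fold higher in RANKL+CST6 than in RANKL (1.84, adjusted p = 3.33e-11). RANKL+CST6 also exceeded Control by 0.47 (adjusted p = 1.73e-05), but after quantile normalization of the libraries this difference was 0.08 (adjusted p = 0.258). The log2 difference Clec4d minus Clec4e was 3.31 ± 0.18 in Control, 1.92 ± 0.04 in RANKL and 2.48 ± 0.10 in RANKL+CST6 (SD, n = 3), a comparison of its change and not of the levels of the genes.

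Clec4n encodes Dectin-2, a receptor for fungal mannans, and moved the other way. Clec4n values were 12.87, 12.72 and 12.70 in Control, 11.82, 12.02 and 11.96 in RANKL, and 9.06, 9.12 and 9.31 in RANKL+CST6. The groups fell in the order Control, RANKL, RANKL+CST6 with no overlap. Clec4n was 1.78-fold lower in RANKL than in Control (log2 fold change -0.83, SE 0.074, limma adjusted p = 5.49e-07), and 6.82-fold lower in RANKL+CST6 than in RANKL (-2.77, adjusted p = 4.50e-12). Against Control, RANKL+CST6 was 12.1-fold lower (-3.60, adjusted p = 5.69e-13), the largest change of any member in the 3 comparisons. Although Clec4n lies between the other Clec4 genes and its protein shares their adaptor, the log2 difference Clec4d minus Clec4n went from 0.83 ± 0.05 in RANKL to 5.44 ± 0.04 in RANKL+CST6 (SD, n = 3).

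Clec5a encodes MDL-1, the member that pairs with DAP12 and DAP10. Clec5a values were 8.98, 9.21 and 8.96 in Control, 9.61, 9.79 and 9.73 in RANKL, and 11.00, 11.02 and 10.97 in RANKL+CST6. The groups rose in that order with no overlap. Clec5a was 1.58-fold higher in RANKL than in Control (log2 fold change 0.66, SE 0.076, limma adjusted p = 5.17e-06) and a further 2.43-fold higher in RANKL+CST6 (1.28, adjusted p = 8.28e-09), so that RANKL+CST6 exceeded Control 3.85-fold.

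Clec7a encodes Dectin-1, the receptor for fungal beta-glucan. Clec7a values were 13.47, 13.53 and 13.57 in Control, 13.03, 13.20 and 13.22 in RANKL, and 10.62, 10.83 and 11.01 in RANKL+CST6. The order was that of Clec4n, and no groups overlapped. Clec7a was 1.29-fold lower in RANKL than in Control (log2 fold change -0.37, SE 0.084, limma adjusted p = 0.00164), 5.02-fold lower in RANKL+CST6 than in RANKL (-2.33, adjusted p = 7.60e-11) and 6.49-fold lower in RANKL+CST6 than in Control.

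Of the inhibitory members, Clec12a encodes MICL, which recognizes uric acid crystals and dampens responses to dead cells. Clec12a values were 13.13, 13.23 and 13.28 in Control, 13.63, 13.71 and 13.68 in RANKL, and 14.58, 14.72 and 14.82 in RANKL+CST6. As with Clec5a, the groups rose in that order and did not overlap. Clec12a was 1.38-fold higher in RANKL than in Control (log2 fold change 0.46, SE 0.061, limma adjusted p = 2.00e-05) and 2.04-fold higher in RANKL+CST6 than in RANKL (1.03, adjusted p = 9.29e-09). Clec7a lies nearby, with Clec12b, Clec1b, Clec9a and Clec1a between it and Clec12a. Clec7a changed in the opposite direction, and the log2 difference Clec12a minus Clec7a went from 0.52 ± 0.07 in RANKL to 3.88 ± 0.08 in RANKL+CST6 (SD, n = 3).

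Clec4a2 encodes Dcir1, the Dcir best known as a brake on dendritic cells. Clec4a2 values were 13.06, 12.99 and 12.94 in Control, 13.01, 13.01 and 12.99 in RANKL, and 12.09, 11.97 and 12.08 in RANKL+CST6. Control and RANKL overlapped, and all 3 RANKL+CST6 libraries were below them. The difference between RANKL and Control was 0.003 (SE 0.046, 95% interval -0.10 to 0.10, limma adjusted p = 0.955). Clec4a2 was 1.94-fold lower in RANKL+CST6 than in RANKL (-0.96, adjusted p = 1.23e-09). Reads could be shared with Clec4a4, since 10.3% of the 31-base words of Clec4a2 transcripts occur in another gene and 2.14% of the 100-base words occur in Clec4a4, so the value of Clec4a2 is less certain than those of the other members. Clec4a4 was at 4.52 in Control and at most 7.87 in any library.

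The pair of Dcir genes without ITIM followed Clec4d. Clec4a1 values were 13.05, 12.91 and 12.91 in Control, 11.74, 12.03 and 11.98 in RANKL, and 13.85, 13.85 and 14.00 in RANKL+CST6. RANKL was lowest and RANKL+CST6 highest, with no overlap. Clec4a1 was 2.05-fold lower in RANKL than in Control (log2 fold change -1.04, SE 0.074, limma adjusted p = 6.40e-08), 3.95-fold higher in RANKL+CST6 than in RANKL (1.98, adjusted p = 1.02e-10) and 1.92-fold higher in RANKL+CST6 than in Control (adjusted p = 1.49e-07).

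Clec4a3 values were 12.28, 12.21 and 12.27 in Control, 11.59, 11.97 and 11.90 in RANKL, and 12.80, 12.88 and 13.13 in RANKL+CST6. The order was again RANKL, Control, RANKL+CST6 with no overlap, at smaller distances than for Clec4a1. Clec4a3 was 1.35-fold lower in RANKL than in Control (log2 fold change -0.43, SE 0.096, limma adjusted p = 0.00136) and 2.16-fold higher in RANKL+CST6 than in RANKL (1.11, adjusted p = 3.31e-07). The log2 difference Clec4a1 minus Clec4a2 was -0.04 ± 0.04 in Control, -1.08 ± 0.16 in RANKL and 1.86 ± 0.08 in RANKL+CST6 (SD, n = 3). The difference Clec4a3 minus Clec4a2 was -0.74 ± 0.06, -1.18 ± 0.21 and 0.89 ± 0.17 (SD, n = 3). Both differences were lowest in RANKL and highest in RANKL+CST6.

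Counted together, RANKL against Control gave 2 members called higher, 5 called lower and 2 not called at an adjusted p under 0.05, and 7 of 9 had groups that did not overlap. Among all genes tested in this comparison, 36.6% were called higher, 35.9% lower, and 75.4% had groups that did not overlap. The median log2 fold change was -0.37 over the members and -0.01 over all genes, and the median absolute value 0.46 and 0.53. The activating members had 1 higher, 3 lower and 1 not called. The inhibitory members had 1 higher and 1 not called, and both Dcir genes without ITIM were lower.

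For RANKL+CST6 against RANKL, 6 members were called higher and 3 lower, and none of the 9 had groups that overlapped. Among all genes, 34.8% were called higher, 38.0% lower, and 75.9% did not overlap. The median log2 fold change was 1.11 over the members and -0.02 over all genes, and the median absolute value 1.28 and 0.55. Of the activating members 3 were higher and 2 lower, of the inhibitory members 1 was higher and 1 lower, and both Dcir genes without ITIM were higher. The activating class thus held both the largest falls (Clec4n and Clec7a) and rises of at least 2-fold (Clec4d, Clec4e and Clec5a).

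RANKL+CST6 against Control shares its libraries with the other comparisons and gave the same numbers, 6 members higher and 3 lower with none overlapping, where 36.7% of all genes were called higher, 35.1% lower and 75.4% did not overlap. The median log2 fold change was 0.68 over the members and 0.01 over all genes, and the median absolute value 1.30 and 0.53. No member had a RANKL+CST6 mean between those of Control and RANKL. Clec4d, Clec4a1 and Clec4a3 were lower in RANKL than in Control and higher in RANKL+CST6 than in Control. Clec4e and Clec4a2 differed between RANKL+CST6 and both other groups and were not called between RANKL and Control. Clec4n and Clec7a were lower in both steps, and Clec5a and Clec12a higher in both.

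**Figure D2:**
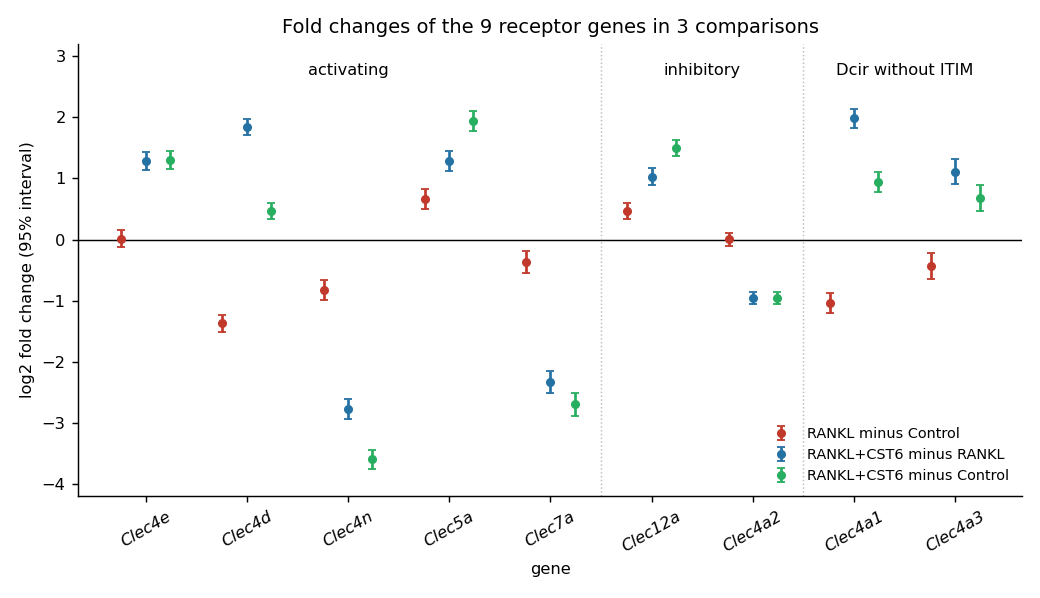
Log2 fold change (y axis) of each receptor gene (x axis, grouped by class) in the 3 comparisons, with 95% intervals from limma (3 libraries per group). The blue points of RANKL+CST6 minus RANKL lie on both sides of 0 within the activating and the inhibitory class, from -2.77 for Clec4n to 1.84 for Clec4d and from -0.96 for Clec4a2 to 1.03 for Clec12a.

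The summed level of neutrophil markers stood in the same order as Clec4d, Clec4a1 and Clec4a3, with RANKL lowest and RANKL+CST6 highest. The summed linear level of 14 neutrophil markers was 23697 to 30676 in Control, 7182 to 11470 in RANKL and 55023 to 63198 in RANKL+CST6, with 13 of 14 called lower in RANKL than in Control and 13 called higher in RANKL+CST6 than in RANKL. In RANKL+CST6 against Control, 12 of 14 were called higher and 2 lower. Csf3r (mean log2 values of 12.33, 9.78 and 11.48 in Control, RANKL and RANKL+CST6) and Mmp8 (12.27, 10.51 and 10.54) were highest in Control. None of the neutrophil markers was at 0 in all libraries. Ly6g, which defines mature neutrophils, had mean log2 values of 3.83, 3.30 and 6.19 in Control, RANKL and RANKL+CST6, and Elane, an enzyme of granulocyte precursors, 7.73, 6.29 and 10.73. The sum of 5 monocyte markers was 24733 to 26768 in Control, 3510 to 3875 in RANKL and 12891 to 14842 in RANKL+CST6, with 5 of 5 called lower in RANKL than in Control, 5 of 5 called higher in RANKL+CST6 than in RANKL, and Control highest. The sum of 7 macrophage markers was 299298 to 312552, 153165 to 156384 and 277070 to 288162. Of these markers, 1 was called higher and 6 lower in RANKL than in Control, and 4 higher and 1 lower in RANKL+CST6 than in RANKL. Single markers differed in course. Csf1r, the largest term in Control, had mean log2 values of 17.27, 16.11 and 14.46, and Fcgr1 11.91, 8.69 and 15.17. Like the neutrophil sum, Fcgr1, Adgre1 (15.91, 14.12 and 16.57), C1qa (14.70, 12.44 and 15.78) and Itgam were lowest in RANKL and highest in RANKL+CST6. Csf1r, Cd68 and Mertk were not. The C-type lectin receptors described here are also expressed by monocytes and neutrophils, and the part of such cells in the results was not tested. The sum of 9 dendritic cell markers was 1975 to 2180 in Control, 543 to 600 in RANKL and 306 to 377 in RANKL+CST6. This sum had the order of Clec4n and Clec7a. Most of it in Control and RANKL came from Clec10a, itself a C-type lectin gene, with linear means of 1768, 320 and 99.9. Of the 8 markers tested, 2 were called higher and 4 lower in RANKL than in Control. The same counts held in RANKL+CST6 against RANKL, so the markers did not share 1 order. The part of dendritic cells was not tested either. Clec12a, Clec5a and Clec4e were higher in RANKL+CST6 than in RANKL, as the neutrophil and monocyte sums were. From Control to RANKL those sums fell, whereas Clec12a rose (log2 fold change 0.46), Clec5a rose (0.66) and Clec4e was not called (0.01).

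The Clec4 cluster held genes that were higher and genes that were lower with CST6. The cluster holds 9 protein-coding genes, all of which were measured and called in RANKL+CST6 against RANKL. In chromosome order, Clec4a1 and Clec4a3 were higher, Clec4a4, Clec4b1 and Clec4a2 were lower, Clec4b2 was higher, Clec4n was lower, and Clec4d and Clec4e were higher. The 3 genes that are not members had low levels. Clec4a4, which encodes the ITIM receptor Dcir2, rose 8.56-fold with RANKL (log2 fold change 3.10, SE 0.21, limma adjusted p = 3.26e-08) and was 3.94-fold lower in RANKL+CST6 than in RANKL, a course that no member shared. Clec4b1 fell in both steps (-2.18 and -2.50), and Clec4b2 went from a mean of 2.87 in RANKL to 6.24 in RANKL+CST6.

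**Figure D3:**
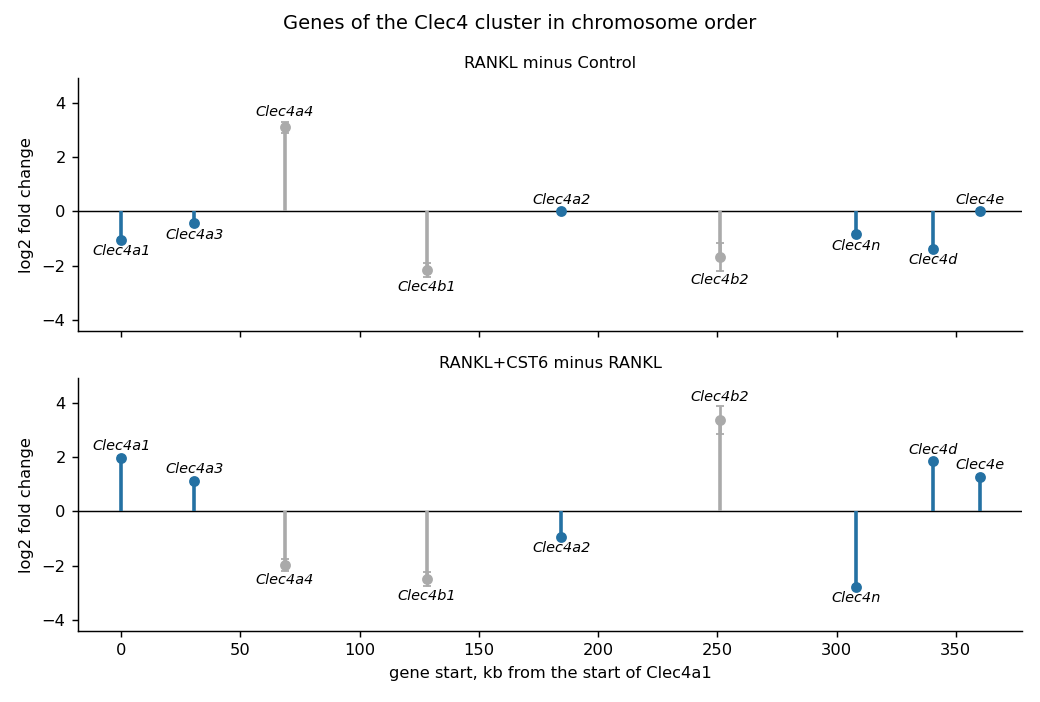
Log2 fold change (y axis; bars are SE) of the 9 protein-coding genes of the Clec4 cluster against the distance of each gene start from that of Clec4a1 in kb (x axis), for RANKL minus Control and RANKL+CST6 minus RANKL. Members are blue and other genes gray. In RANKL+CST6 minus RANKL, genes above and below 0 lie within the same cluster, as with Clec4n at -2.77 beside Clec4d at 1.84, and in RANKL minus Control Clec4a4 stands above 0 at 3.10.

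The 16 genes of the signaling chain below the activating receptors were all measured. In RANKL against Control, 2 were higher, 12 lower and 2 not called (median log2 fold change -0.36), and in RANKL+CST6 against RANKL, 6 were higher, 8 lower and 2 not called (median -0.04). Among all genes tested, 36.6% were called higher and 35.9% lower in the first comparison, and 34.8% and 38.0% in the second. Those shares also belong beside the counts of the other gene and marker lists. Fcer1g, the adaptor of Mincle, MCL and Dectin-2, had values of 14.01, 14.01 and 13.89 in Control, 12.75, 12.95 and 12.86 in RANKL, and 14.80, 14.91 and 14.96 in RANKL+CST6. Its groups did not overlap and stood in the order of Clec4d, Clec4a1 and Clec4a3. Fcer1g was 2.17-fold lower in RANKL than in Control (-1.12, limma adjusted p = 5.71e-09) and 4.10-fold higher in RANKL+CST6 than in RANKL (2.04, adjusted p = 1.37e-11). Of the genes whose proteins pair with it, Clec4d was likewise lower with RANKL and higher with CST6, Clec4e was higher with CST6 and not called with RANKL, and Clec4n was lower in both steps.

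The adaptors of MDL-1 had another course. Tyrobp fell with RANKL by 0.33 on the log2 scale (limma adjusted p = 7.88e-05), and RANKL+CST6 differed from RANKL by 0.03 (adjusted p = 0.664), a value that became -0.25 (adjusted p = 0.000598) after quantile normalization. Hcst was lower with RANKL (-0.89) and higher with CST6 (0.66, adjusted p = 0.0017) at mean levels of 7.29, 6.41 and 7.07. Clec5a was higher in both steps, so both adaptor genes went the other way with RANKL.

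Of the kinases, Syk had 0.03 in RANKL against Control (adjusted p = 0.59) and was lower in RANKL+CST6 than in RANKL (-0.38, limma adjusted p = 2.60e-06). The Src family kinases, which phosphorylate the motifs, divided: Lyn fell with RANKL and rose with CST6 (-1.19, then 1.15), while Fgr rose 6.19-fold with RANKL and was 2.22-fold lower with CST6. Among the scaffold genes, Card9 fell with RANKL (-0.26, adjusted p = 0.00225) and had 0.04 with CST6 (adjusted p = 0.535), Bcl10 fell in both steps (-0.65 and -0.16), and Malt1, the protease of this complex, rose 3.88-fold with RANKL (adjusted p = 1.18e-10) and was 3.24-fold lower with CST6 (adjusted p = 2.83e-10). The exchange factor Vav1 fell and then rose (-0.43 and 1.08), and Vav3 fell in both steps (-0.84 and -0.24).

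The 3 phosphatase genes of the ITIM receptors were all measured, with 1 higher and 2 lower in RANKL than in Control and 2 higher and 1 not called in RANKL+CST6 than in RANKL. Ptpn6, which encodes SHP-1, was 1.51-fold higher in RANKL+CST6 than in RANKL (log2 fold change 0.60, limma adjusted p = 5.38e-08). Its difference between RANKL and Control was 0.14 (adjusted p = 0.0092) and lost its call under quantile normalization (adjusted p = 0.0573) and median centring (adjusted p = 0.443). Inpp5d, which encodes SHIP-1, was lower with RANKL (-0.39) and had 0.16 with CST6 (adjusted p = 0.0101), not called under quantile normalization (adjusted p = 0.143). Ptpn11, which encodes SHP-2, had 0.09 with CST6 (adjusted p = 0.0947), called under median centring (0.13, adjusted p = 0.0244).

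**Figure D4:**
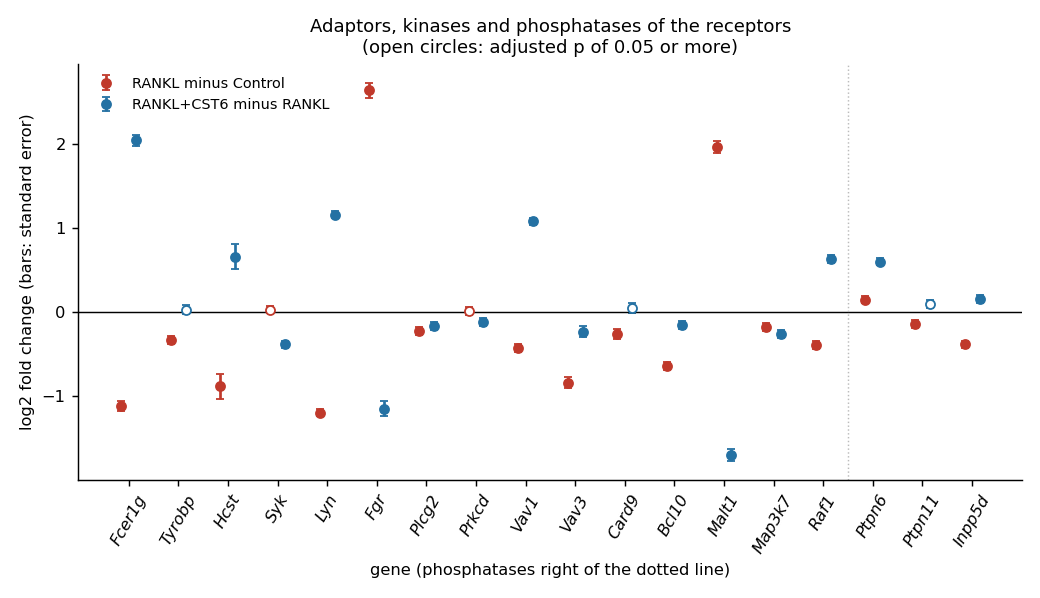
Log2 fold change (y axis; bars are SE) of signaling genes and 3 phosphatase genes (x axis) in RANKL minus Control (red) and RANKL+CST6 minus RANKL (blue), with open circles for genes not called by limma (3 libraries per group). Fcer1g, Lyn and Vav1 are below 0 in red and above 0 in blue, and Fgr and Malt1 the reverse.

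Cytokine and enzyme genes induced through Card9 formed another list, of which 8 of 12 were tested. In RANKL against Control all 8 were called lower (median log2 fold change -2.30), with Ccl3 at -2.80, Tnf at -2.46, Il1b at -4.15 and Il10 at -3.11. In RANKL+CST6 against RANKL, 4 were higher, 2 lower and 2 not called. Il10 (1.93) and Tnf (0.95, limma adjusted p = 2.61e-06) were higher, while the neutrophil chemokines Cxcl1 (-2.94, adjusted p = 9.74e-11) and Cxcl2 (-1.93) were lower. Against Control, none of the 8 was higher in RANKL+CST6 and 7 were lower. The genes that were lower in both steps, Cxcl1 and Cxcl2, had the order of Clec4n and Clec7a.

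Likeness of pattern was described by the root mean square difference of log2 values, each gene centered on its own mean, across the 9 libraries. The pattern most like that of each member was sought among all genes tested except unnamed gene models (no symbol, Gm with digits, or names ending in Rik). For Clec4n it was that of Mxd4 (0.219), followed by Cxcl1 (0.228) and Ltbp3 (0.239), and for Clec7a that of Zfp704 (0.130). For Clec4a1 it was P2rx4 (0.0627), a purinergic ion channel, and then Fcer1g (0.0649). Clec4e was closest to Ctsl (0.0886), which encodes cathepsin L, a lysosomal cysteine protease. For Clec4d it was Tmem229b (0.0738), for Clec5a Spryd7 (0.0689), for Clec12a Aga (0.0337), for Clec4a2 Csf2rb2 (0.0411), a receptor subunit for myeloid cytokines, and for Clec4a3 Rab28 (0.0596). Among the members themselves, Clec4d and Clec4a1 differed by 0.205, Clec5a and Clec12a by 0.209, and Clec4n and Clec7a by 0.376. These are descriptions over libraries of the same 3 groups.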

How the data were processed

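RNA had been made into stranded mRNA libraries for 9 samples. The table that the authors deposited holds log2 normalized values of 13526 genes; Salmon 1.2.1, DESeq2 and GRCm38.p6 are named by the submitters' processing notes, without role or order. The normalization and the gene filter are not given in the sources used here. When the size of 1 read was estimated per library, 38.0% to 54.5% of linear values under 12 were whole numbers of reads to within 0.02. Reads were therefore not recovered and no count model or counting interval was used. The precision of a fold change rests on an estimate of the spread that the 3 groups share and that limma moderates. The number of sample columns not used was 0, and values above 0 shared between any 2 libraries numbered 0.

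Genes reaching a linear value of 10 in 3 or more libraries were tested (12932, including all 9 members; 594 were left out). limma 3.58.1 in R 4.3.3 was fitted to the means of the 3 groups with the mean-variance trend, and two-sided p-values were adjusted over all tested genes (Benjamini-Hochberg). A gene was called where its adjusted p was below 0.05. The step was tested on simulated data. Python 3.11.15 with pandas 2.3.3 was used for the rest. GENCODE M21 matched 13516 gene identifiers, and promoters were from RefSeq.

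The members, lists and tests were chosen with earlier results of these data known. Genes named were the members, the signaling and phosphatase genes, up to 4 genes per other list and comparison by adjusted p, genes inside the Clec4 cluster, the genes nearest in pattern and defining markers; results on some single genes that this rule names are not reported here. The alternatives were other filters (none, or 100), quantile normalization, median centring, a further 8 added, limma without trend or with robust on, only the groups compared, a replicate block, stricter thresholds and leaving out each library.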

Additional observations from a re-analysis of the deposited data

How the results depend on the processing

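Over 27 results (9 members in 3 comparisons) and 18 alternatives each, 475 of 486 values kept their direction and their side of the threshold. The exceptions were Clec4d in RANKL+CST6 against Control, not called after quantile normalization (0.076), and the 2 RANKL against Control differences that were not called at all. For Clec4e these became -0.0238 under quantile normalization and -0.0932 under median centring, and -0.0494 to 0.0885 when single libraries were left out. For Clec4a2 they became -0.0140, -0.104 and -0.0234 to 0.0344. Median centring moved the median of all genes by -0.107 in RANKL against Control. In RANKL+CST6 against RANKL, the largest moves in size over the alternatives were those of Clec12a, from 1.03 to 0.748, and Clec4d, from 1.84 to 1.57. Against Control, the lowest value of Clec12a was 1.18, where the main fit gave 1.49.

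Requiring a 2-fold change left 2 members called in RANKL against Control and 5 in RANKL+CST6 against Control. It left 4, 6 and 2 signaling genes in RANKL against Control, RANKL+CST6 against RANKL and RANKL+CST6 against Control, 0 phosphatase genes in each, 4 myeloid transcription factors in RANKL+CST6 against RANKL, and 3403, 3591 and 3317 genes of the whole table. With CST6, 1 phosphatase gene was called under quantile normalization or at an adjusted p under 0.01, and 1 to 3 when libraries were left out, 1 without RANKL+CST6 replicate 1 and 3 without RANKL replicate 1. A filter at 100 left 14, 16 and 15 called genes among the other C-type lectins, since fewer were tested.

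Same-numbered libraries of different groups deviated together at correlations of -0.078 to 0.071, and differently numbered ones at -0.082 to 0.083. Between RANKL and RANKL+CST6 the same-numbered values were 0.025, 0.065 and 0.071, above the others, and between Control and RANKL+CST6 they were -0.070, -0.078 and 0.010. Correlations this small cannot decide whether the libraries were paired. The main fit did not pair them. With the replicate number as a block, 7, 9 and 9 members were called in the 3 comparisons, and 9354, 9358 and 9267 genes of the whole table. Depth cannot be read from the values, so small differences are limited by the spread of libraries in groups of 3.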

Other observations

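Other genes listed for a C-type lectin domain or, as with Clec16a, by name, outside the 9 receptors above, also moved in both directions. Of 45 listed, 30 were tested. In RANKL against Control 5 were higher, 18 lower and 7 not called (median log2 fold change -1.21), and in RANKL+CST6 against RANKL 12 were higher, 14 lower and 4 not called (median -0.20). The mannose receptor Mrc1 had mean log2 values of 14.98, 12.70 and 10.90 in Control, RANKL and RANKL+CST6, and Clec10a, a galactose-binding lectin of macrophages and dendritic cells, was 17.6-fold lower in RANKL+CST6 than in Control (-4.14, limma adjusted p = 2.99e-12). Both had the order of Clec4n and Clec7a. In contrast, Klra2, a receptor of the Ly49 family, was 5.71 in Control, 5.78 in RANKL and 12.27 in RANKL+CST6 (90.0-fold against RANKL, adjusted p = 2.08e-12). The ITIM-bearing Cd72 rose with RANKL (0.68) and with CST6 (3.25, adjusted p = 5.15e-13), the order of Clec12a. Clec2i was 15.2-fold lower in RANKL than in Control and 4.11-fold higher in RANKL+CST6 than in RANKL.

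Of 8 myeloid transcription factors, 6 were lower in RANKL than in Control, and 4 were higher and 3 lower in RANKL+CST6 than in RANKL. Bcl6 (-1.06, then 2.58, limma adjusted p = 6.91e-12), Cebpb (1.19 with CST6) and Irf8 (-1.67, then 0.50) were higher with CST6, and Cebpa was lower in both steps (-0.84 and -0.65). Spi1, which encodes PU.1, was higher with RANKL (0.50) and lower with CST6 (-0.36, adjusted p = 3.47e-05); it was chosen by name after its values were seen.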
